A study of Mus musculus with 12 samples.

Results

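The genes described here are 10 genes of the Notch pathway, a signalling system that works between touching cells: the receptors Notch1, Notch2, Notch3 and Notch4, the ligands Dll1, Dll3, Jag1 and Jag2, and the target genes Hes1 and Hes5. They were taken by gene symbol from the platform annotation, which gave 19 probe sets of 45101 on the array, and 10 genes of the 18194 with a named probe set. All 10 genes were measured. The samples were mouse spinal cord RNA on 12 one-colour Affymetrix arrays, in 4 groups of 3 arrays labelled as biological replicates. The groups were Olig2cre/DA-Cat of day 15 and their wild-type littermates of day 15, and Olig2cre/DA-Cat of day 4 and their wild-type littermates of day 4. In Olig2cre mice the Cre recombinase is made where Olig2 is on, in the oligodendrocyte lineage and in motor neuron progenitors, and DA-Cat is a dominant-active β-catenin, the protein that carries the Wnt signal to the nucleus. No group carried Cre alone, so Cre and DA-Cat cannot be told apart. The days are labelled as developmental stages, whereas the treatment text attached to all samples describes lysolecithin injection into ventrolateral white matter of mice aged 8 to 10 weeks, collected unlesioned or 14 days after the lesion. The labels do not settle what the days are counted from, and the number of animals behind each array is unknown here.

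Notch receptors are bound by Delta-like and Jagged ligands on a neighbouring cell, are then cut by ADAM proteases and γ-secretase, and release an intracellular fragment that joins RBPJ and Mastermind proteins on DNA to switch on Hes and Hey repressors. In the developing cord this keeps progenitors from becoming neurons too early, and Notch1 signalling through Hes5 is known to hold oligodendrocyte precursors back from maturing. Notch3 is best known from pericytes and smooth muscle, and Notch4 from endothelium.

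Levels are log2 signals as deposited, differences are on the log2 scale, and tests are limma fits over all genes with Benjamini-Hochberg adjustment and a threshold of 0.05. A level of one probe set cannot be set against that of another. Array medians lay between 6.14 and 6.19. Axin2, a feedback target of β-catenin, was higher in Olig2cre/DA-Cat than in wild type by 0.51 at day 15 (adjusted p = 0.0057) and by 1.05 at day 4 (adjusted p = 1.16e-05), whereas Ctnnb1 itself differed by -0.07 (adjusted p = 0.693) and -0.05 (adjusted p = 0.696). The source label names white matter, yet the mean over 9 neuron markers was 12.33 at its lowest and 12.64 at its highest array, so neurons were not absent. Skeletal muscle markers had mean levels of 10.32, 5.27 and 8.19 on the Olig2cre/DA-Cat arrays of day 15, so the first of these arrays stood apart. On the other 9 arrays they lay between 5.08 and 8.79. Without the first array every call of the 10 genes held except that of Notch4.

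The day comparison set day 15 against day 4 within each genotype. All 10 genes had lower means at day 15 than at day 4 in both genotypes. In Olig2cre/DA-Cat 10 of 10 fell, where 26.3% of all genes did, and in wild type 9 of 10 fell, where 23.6% of all genes did. Dll3, Hes5 and Notch3 fell the most, to 0.333, 0.352 and 0.451 of the day 4 level in wild type. For 9 of the 10 genes every one of the 6 arrays of day 15 lay below every one of the 6 arrays of day 4, a pattern that 20.1% of all genes showed. Notch4 was the exception. In bulk tissue fewer cells of a type and less RNA per cell cannot be told apart.

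**Figure D1:**
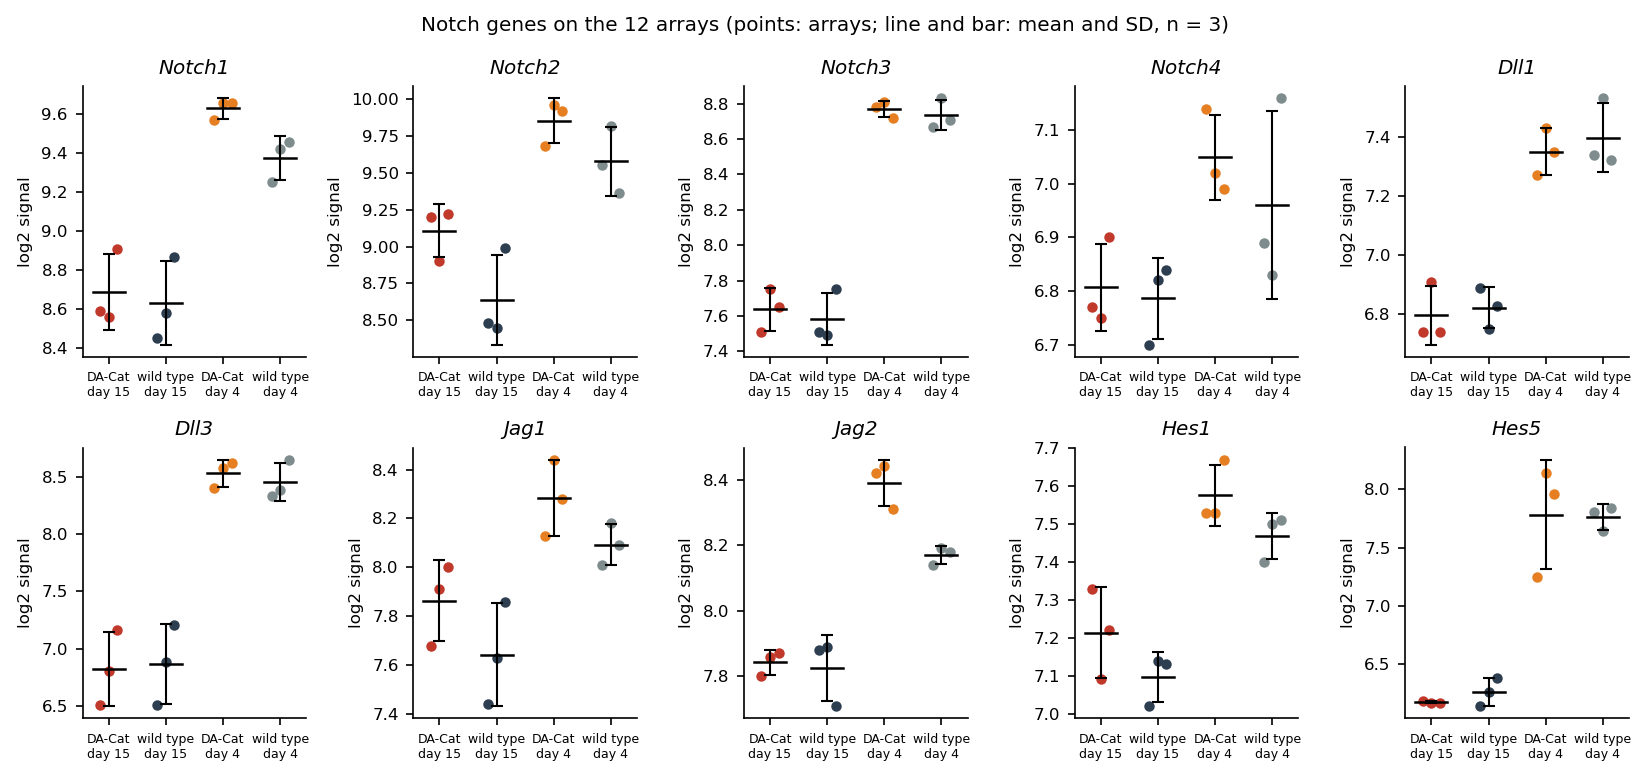
Log2 signal of the 10 Notch genes on each array, 1 panel per gene with its own axis that does not start at 0; points are arrays, the line is the mean and the bar the SD (n = 3 arrays per group). The day 15 groups, at left in each panel, lie below the day 4 groups for 9 genes, and the groups of Notch4 overlap across days (6.70 to 6.90 at day 15, 6.83 to 7.16 at day 4).

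Among the receptors, Notch3 separated the days most clearly. Its signals were 7.51, 7.75 and 7.65 at day 15 against 8.78, 8.81 and 8.72 at day 4 in Olig2cre/DA-Cat. In wild type they were 7.51, 7.49 and 7.75 at day 15 against 8.67, 8.83 and 8.71 at day 4. The highest day 15 array was 7.75 and the lowest day 4 array 8.67, so the days did not overlap in either genotype. Notch3 fell by 1.14 ± 0.09 in Olig2cre/DA-Cat (SE, n = 3, limma adjusted p = 3.84e-07) and fell by 1.15 ± 0.09 in wild type (SE, n = 3, limma adjusted p = 4.45e-07). Notch1, the receptor best known from oligodendrocyte precursors, had 8.59, 8.56 and 8.91 at day 15 and 9.57, 9.66 and 9.66 at day 4 in Olig2cre/DA-Cat. The wild-type signals of Notch1 were 8.45, 8.58 and 8.87 at day 15 and 9.25, 9.42 and 9.46 at day 4. It fell by 0.94 in Olig2cre/DA-Cat (adjusted p = 2.37e-05) and fell by 0.74 in wild type (adjusted p = 0.000187), with no overlap between days.

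Notch2, a receptor found in glia and progenitors, was at 9.11 ± 0.18 at day 15 and 9.86 ± 0.15 at day 4 in Olig2cre/DA-Cat (SD, n = 3). In wild type it was at 8.64 ± 0.31 at day 15 and 9.58 ± 0.23 at day 4 (SD, n = 3). The days did not overlap, and Notch2 fell by 0.75 in Olig2cre/DA-Cat (adjusted p = 0.00167) and fell by 0.94 in wild type (adjusted p = 0.000348). Notch4 had the smallest day difference of the 10 genes in each genotype. It had 6.77, 6.75 and 6.90 at day 15 and 7.14, 7.02 and 6.99 at day 4 in Olig2cre/DA-Cat, and 6.70, 6.82 and 6.84 against 6.89, 6.83 and 7.16 in wild type. The difference was -0.24 in Olig2cre/DA-Cat (adjusted p = 0.0399) and -0.18 in wild type (adjusted p = 0.127). The Notch4 call in Olig2cre/DA-Cat was lost under 10 of 19 alternatives, among them leaving out the array with most muscle signal (-0.22, adjusted p = 0.1).

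Among the ligands, Dll3 had the largest fall of all 10 genes. Dll3 differs from other Delta proteins in that it does not activate Notch on a neighbour and acts inside the cell that makes it, as known from mouse and cell culture work. It had 6.51, 6.80 and 7.16 at day 15 against 8.40, 8.58 and 8.62 at day 4 in Olig2cre/DA-Cat, and 6.51, 6.88 and 7.21 against 8.33, 8.39 and 8.65 in wild type. The day 15 arrays were spread wider than those of day 4, yet the highest of them, at 7.21, stayed below the lowest day 4 array, at 8.33. Dll3 fell by 1.71 ± 0.18 in Olig2cre/DA-Cat (SE, n = 3, limma adjusted p = 6.51e-06) and fell by 1.59 ± 0.18 in wild type (SE, n = 3, limma adjusted p = 1.48e-05).

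The promoter window of Dll3 is shown because this gene fell most, with the E-box, a motif that basic helix-loop-helix factors as a class bind. The window holds the 250 bases before and 50 after the RefSeq gene start, in GRCm38.p6, at chr7:28301736-28302035 on the minus strand, written 5′ to 3′. Capitals mark the E-box letters CAGCTG, which read the same on both strands.
Dll3: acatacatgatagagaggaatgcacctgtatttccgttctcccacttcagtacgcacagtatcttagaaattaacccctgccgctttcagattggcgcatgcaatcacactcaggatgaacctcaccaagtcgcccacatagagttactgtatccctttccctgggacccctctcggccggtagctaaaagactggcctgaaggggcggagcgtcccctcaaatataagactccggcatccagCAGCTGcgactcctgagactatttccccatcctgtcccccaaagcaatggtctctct
The match begins 7 bases before the annotated start. CAGCTG was also found in the windows of Dll1 and Jag1, and 16.3% of all 32851 windows of this length hold it.

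The other ligands fell less than Dll3. Dll1, the Delta ligand that restrains neuron formation, had 6.74 to 6.91 on the 6 arrays of day 15 and 7.27 to 7.53 on the 6 of day 4. It fell by 0.56 in Olig2cre/DA-Cat (adjusted p = 6.99e-05) and fell by 0.57 in wild type (adjusted p = 6.47e-05). Jag1, a ligand on axons and glia that activates Notch1 on precursors, had 7.68, 7.91 and 8.00 at day 15 and 8.13, 8.44 and 8.28 at day 4 in Olig2cre/DA-Cat, and 7.44, 7.63 and 7.86 against 8.01, 8.18 and 8.09 in wild type. The days nearly touch, with 8.00 the highest day 15 and 8.01 the lowest day 4 array. Jag1 fell by 0.42 in Olig2cre/DA-Cat (adjusted p = 0.00934) and fell by 0.45 in wild type (adjusted p = 0.00724). Jag2, a second Jagged ligand, fell by 0.55 in Olig2cre/DA-Cat (adjusted p = 1.5e-05) and fell by 0.34 in wild type (adjusted p = 0.000714), and its level spanned 7.71 to 7.89 at day 15 and 8.14 to 8.44 at day 4.

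Of the Hes targets, Hes5 changed far more than Hes1. Hes5, a repressor that depends strongly on Notch in neural progenitors, had 6.18, 6.17 and 6.17 at day 15 against 7.25, 8.14 and 7.96 at day 4 in Olig2cre/DA-Cat. In wild type it had 6.14, 6.26 and 6.38 at day 15 against 7.81, 7.64 and 7.84 at day 4. The first Olig2cre/DA-Cat array of day 4 was lower than the other arrays of that day and still above every array of day 15. Hes5 fell by 1.61 ± 0.17 in Olig2cre/DA-Cat (SE, n = 3, limma adjusted p = 7.33e-06) and fell by 1.51 ± 0.17 in wild type (SE, n = 3, limma adjusted p = 1.53e-05). Hes1, a repressor that other pathways also induce, had 7.33, 7.09 and 7.22 at day 15 against 7.53, 7.53 and 7.67 at day 4 in Olig2cre/DA-Cat, and 7.02, 7.14 and 7.13 against 7.40, 7.50 and 7.51 in wild type. It fell by 0.36 in Olig2cre/DA-Cat (adjusted p = 0.00126) and fell by 0.37 in wild type (adjusted p = 0.00124).

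The Hes5 window is shown because Hes5 is a well-known target of RBPJ and fell strongly. It lies at chr4:154960673-154960972 of GRCm38.p6 on the plus strand, from RefSeq, and is written 5′ to 3′. Capitals mark TGGGAA, the core of the RBPJ motif, or its reverse complement TTCCCA.
Hes5: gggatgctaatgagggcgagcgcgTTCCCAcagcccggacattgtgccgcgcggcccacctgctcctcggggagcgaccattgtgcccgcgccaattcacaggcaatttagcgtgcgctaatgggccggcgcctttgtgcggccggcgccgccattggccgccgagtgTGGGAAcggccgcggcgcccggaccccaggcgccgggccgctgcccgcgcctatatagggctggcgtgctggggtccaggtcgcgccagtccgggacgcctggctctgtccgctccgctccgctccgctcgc
The reverse-strand match begins 226 bases before the annotated start and the forward match 82 bases before it. Each lies within a longer match to GTGGGAA. Windows were found for 9 of the 10 genes (10 windows). Hes1 had no window, so its promoter was not searched. Among the 9 genes with a window, Hes5 alone had TGGGAA, against 25.6% of all windows, or GTGGGAA, against 6.38%. A search for the TCF and LEF core, on both strands, found CTTTGT in windows of Hes5 and Dll1 (18.7% of all windows) and CTTTGA in that of Jag1 (16% of all windows). These matches describe letters only.

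The genotype comparison set Olig2cre/DA-Cat, with active β-catenin in Olig2 cells, against wild type at each day. No member passed the threshold in limma at either day, on average over the days, or in the test of the difference between days (0 called, beside 0.352% of all genes; 1 with an unadjusted p under 0.05, beside 10.1% of all genes). At day 15, 0 of 10 were called where 2.93% of all genes were, and 1 had an unadjusted p under 0.05, as did 16.9% of all genes. At day 4, 0 of 10 were called where 3.12% of all genes were, and 2 had an unadjusted p under 0.05, as did 20.6% of all genes. On average over both days 0 of 10 were called where 8.31% of all genes were, and 4 had an unadjusted p under 0.05, as did 25.8% of all genes. A block of the replicate numbers within each day, chosen after seeing the data, called 2 members on average, beside 1235 of all genes. They were Notch2 (0.37, limma adjusted p = 0.0381) and Jag1 (0.20, limma adjusted p = 0.0348), each by its brightest probe set. The median difference over the 10 genes was 0.04 at day 15 and 0.10 at day 4, beside 0.02 and 0.03 over all genes. By contrast, 9 myelin markers had mean levels of 9.04, 8.99 and 8.84 on the Olig2cre/DA-Cat arrays of day 4 and of 11.34, 11.15 and 11.34 on those of wild type, and 8 of the 9 fell; at day 15, 7 of the 9 fell.

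**Figure D2:**
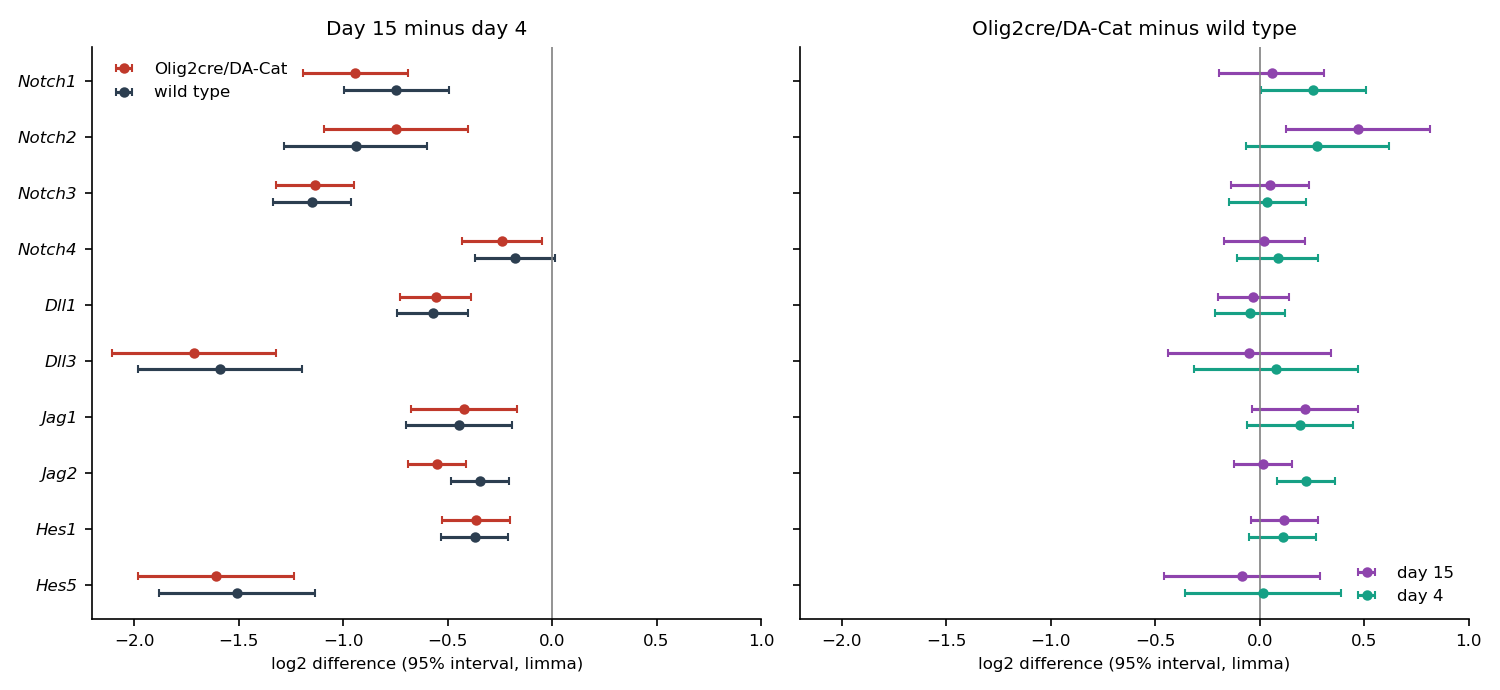
Log2 differences of the 10 genes with 95% intervals from limma: at left day 15 minus day 4 in each genotype, at right Olig2cre/DA-Cat minus wild type at each day. The day intervals lie below 0 except for Notch4 in wild type (-0.37 to 0.01), while the genotype intervals include 0 except for Notch2 at day 15 and for Notch1 and Jag2 at day 4.

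The largest genotype difference was that of Notch2 at day 15. It had 9.20, 8.90 and 9.22 in Olig2cre/DA-Cat and 8.48, 8.45 and 8.99 in wild type, and the third wild-type array overlapped the Olig2cre/DA-Cat range. The difference was 0.47 ± 0.16 (SE, n = 3, limma adjusted p = 0.15), with a 95% interval of 0.13 to 0.81. Without wild-type replicate 3 of day 15 it was 0.65 (adjusted p = 0.0363). At day 4 Notch2 had 9.68, 9.96 and 9.92 in Olig2cre/DA-Cat and 9.55, 9.82 and 9.36 in wild type, with overlap (difference 0.28, adjusted p = 0.342). Its average over both days was 0.37 (95% interval 0.13 to 0.62, adjusted p = 0.06). On the dimmer Notch2 probe set the genotype difference was 0.006 at day 15 (95% interval -0.13 to 0.15) and -0.06 at day 4 (-0.20 to 0.08). With the probe sets averaged it was 0.24 at day 15 (adjusted p = 0.175) and 0.17 on average over the days (adjusted p = 0.0927). The average of the brighter probe set passed under 4 of 19 alternatives, namely without the dimmer 50% of genes (adjusted p = 0.0278), without wild-type replicate 3 of day 15 (0.46, adjusted p = 0.0145), without wild-type replicate 2 of day 4 (0.43, adjusted p = 0.0465) or without Olig2cre/DA-Cat replicate 2 of day 15 (0.42, adjusted p = 0.0347).

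Jag2 had the smallest p at day 4. Its signals were 8.42, 8.44 and 8.31 in Olig2cre/DA-Cat and 8.14, 8.19 and 8.18 in wild type, without overlap, and the difference was 0.22 ± 0.06 (SE, n = 3, limma adjusted p = 0.0824). At day 15 Jag2 was at 7.84 ± 0.04 in Olig2cre/DA-Cat and 7.83 ± 0.10 in wild type (SD, n = 3), a difference of 0.01 (95% interval -0.12 to 0.15). The difference between the days, -0.21, did not pass (adjusted p = 0.475). Notch1 at day 4 was 9.63 ± 0.05 in Olig2cre/DA-Cat and 9.38 ± 0.11 in wild type (SD, n = 3), also without overlap. The difference was 0.26 (95% interval 0.005 to 0.51, adjusted p = 0.234). On the dimmer Notch1 probe set the day 4 difference was 0.09 (95% interval -0.15 to 0.34), with overlap. On the dimmer Jag2 probe set it was 0.25 (0.08 to 0.42, limma adjusted p = 0.145 with all probe sets tested). By the brightest probe sets, Notch1, Jag2 and Hes1 made 3 of 10 genes without overlap at day 4, all higher in Olig2cre/DA-Cat. Of all genes 29.1% did not overlap in either direction and 18.8% were higher without overlap. At day 15 the number was 0 of 10, beside 20.3% of all genes in either direction.

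For the other genes the values are those of the brightest probe set of each. Notch3 differed by 0.05 at day 15 (95% interval -0.13 to 0.24) and by 0.04 at day 4 (-0.15 to 0.22). Dll1 differed by -0.03 at day 15 (-0.20 to 0.14) and by -0.05 at day 4 (-0.21 to 0.12). Hes1 differed by 0.12 at day 15 (-0.04 to 0.28) and by 0.11 at day 4 (-0.05 to 0.27). Intervals were wider for Dll3, at -0.44 to 0.34 on day 15 and -0.32 to 0.47 on day 4, and for Hes5, at -0.46 to 0.29 and -0.36 to 0.39. The Hes5 interval at day 4 rested on the low first Olig2cre/DA-Cat array: without it the difference was 0.28, with it 0.02, and neither was called. The dimmer Hes5 probe set differed by -0.02 at day 15 (-0.47 to 0.43) and by 0.39 at day 4 (-0.06 to 0.84, adjusted p = 0.378), a wider interval. Jag1 differed by 0.22 at day 15 (-0.04 to 0.47) and by 0.19 at day 4 (-0.06 to 0.44).

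The order of the groups was the same for 7 of the genes. For Notch1, Notch2, Notch3, Notch4, Jag1, Jag2 and Hes1 both day 4 means stood above both day 15 means, and within each day Olig2cre/DA-Cat stood above wild type. Neighbours of the same day overlapped, except at day 4 for Notch1, Jag2 and Hes1. For Dll3 and Hes5 the day 15 means stood the other way round, and for Dll1 those of both days did, in each case with overlapping arrays. Olig2cre/DA-Cat stood above wild type for 9 of the 10 genes at day 4 and 7 at day 15. Over all 18194 genes it did so for 10571 at day 4 and 10058 at day 15. The share of all genes with the full order of the 4 groups was not counted.

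Not every probe set showed the fall. Of the genes with several probe sets, Notch3, Jag2, Hes5 and Notch1 fell on each of theirs in both genotypes when all 45101 probe sets were tested. The dimmer Notch1 probe set fell by 0.37 in Olig2cre/DA-Cat (adjusted p = 0.0231) and by 0.36 in wild type (adjusted p = 0.0289). The dimmer Hes5 probe set had 5.34, 5.70 and 5.85 at day 15 and 6.63, 7.48 and 7.33 at day 4 in Olig2cre/DA-Cat, with the same low first array, and fell by 1.52 (adjusted p = 7.53e-05); in wild type it fell by 1.11 (adjusted p = 0.00102). The dimmer Notch2 probe set stayed between 5.79 and 5.97 on all 12 arrays, with differences of -0.004 in Olig2cre/DA-Cat (adjusted p = 0.976) and -0.07 in wild type (adjusted p = 0.498). The 2 dimmer Jag1 probe sets, at mean levels of 5.31 and 4.85, and the 2 dimmer Notch4 probe sets, at 4.30 and 3.88, passed in neither genotype. When all probe sets of a gene were averaged, Jag1 differed by -0.16 between days in Olig2cre/DA-Cat and was no longer called (adjusted p = 0.215).

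**Figure D3:**
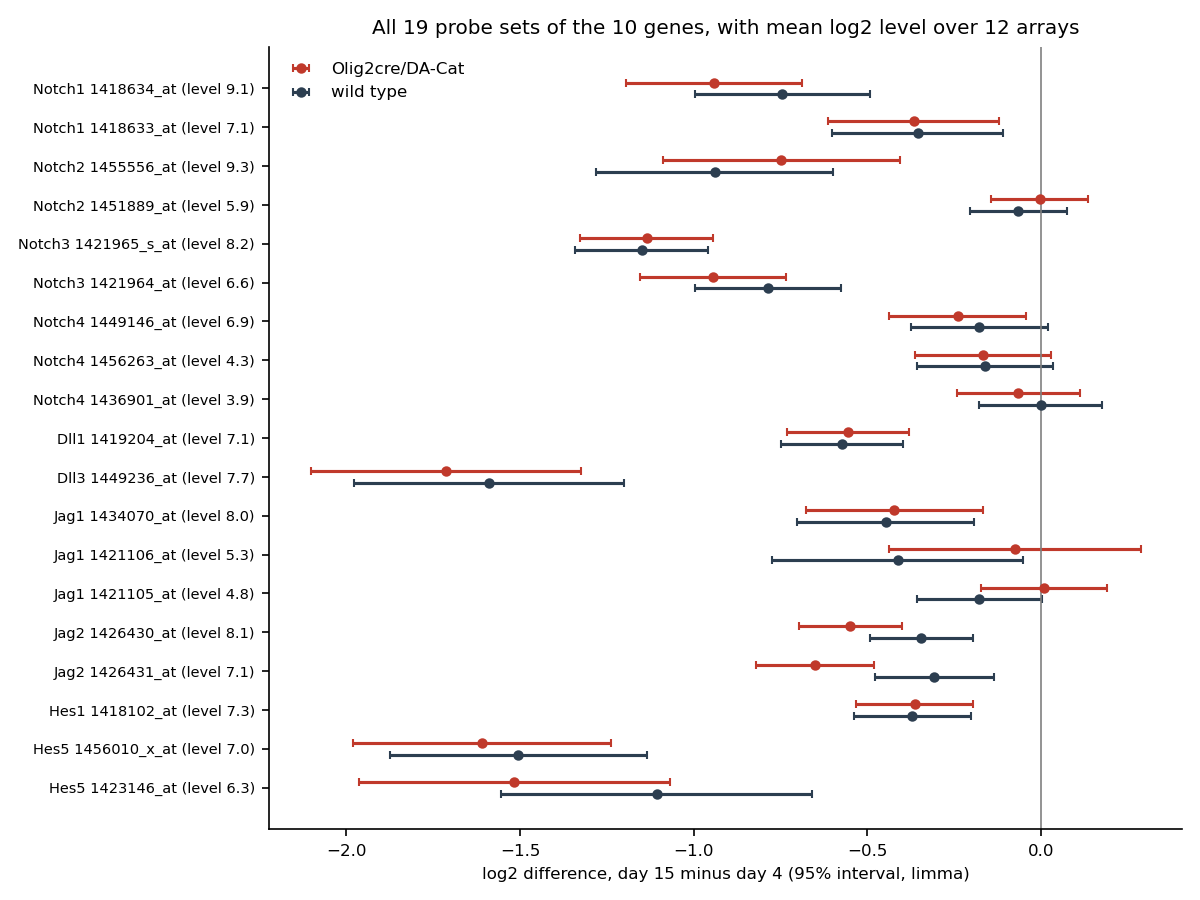
Day 15 minus day 4 (log2, 95% intervals from limma) for each of the 19 probe sets in each genotype, with the mean level over the 12 arrays in parentheses. The probe sets of Jag1, Notch2 and Notch4 near 0 are the dim ones of their gene, at mean levels of 3.88 to 5.88.

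Beyond the 10 genes, 71 of 76 listed pathway genes were measured. In Olig2cre/DA-Cat 32 of the 71 fell and 12 rose at day 15 relative to day 4, beside 26.3% and 21.8% of all genes; in wild type 34 fell and 13 rose, beside 23.6% and 21.3%. The median day difference of the 71 was -0.16 in Olig2cre/DA-Cat and -0.18 in wild type, beside 0.002 and -0.019 over all genes. Further Hes and Hey genes went both ways. Hey2 fell, by log2 differences of -1.13 in Olig2cre/DA-Cat (adjusted p = 4.69e-06) and -1.34 in wild type (adjusted p = 1.3e-06). Hes6, an antagonist of Hes1 that favours differentiation, fell as well (-0.92, adjusted p = 9.01e-07, and -0.69, adjusted p = 1.32e-05, in the same order of genotypes). Hey1, a Notch-induced repressor, rose instead, by 0.50 and 0.28 (adjusted p = 1.22e-05 and 0.00135). Of 9 other ligands 5 fell in Olig2cre/DA-Cat and 6 in wild type and 0 rose. Those with the smallest p in wild type were Dner, a neuronal Notch ligand (-1.24 and -1.08), the matrix protein Mfap2 (-1.52 and -1.40) and Dlk2 (-1.11 and -0.70); Dlk1, named after its values were seen, differed by more than Dlk2 (-1.44 and -1.05).

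The other roles are given by count. Of all genes 21.8% rose and 26.3% fell at day 15 in Olig2cre/DA-Cat, and 21.3% rose and 23.6% fell in wild type. Role counts near these shares show nothing particular about the role. Of 8 fringe and glycosyltransferase genes 2 rose and 2 fell in Olig2cre/DA-Cat, and 2 rose and 3 fell in wild type. Lfng, which adds sugars that favour Delta over Jagged signals, rose by 0.54 in Olig2cre/DA-Cat and 0.49 in wild type, and Poglut1 by 0.56 and 0.49, whereas Rfng fell (-0.96 and -0.91). Neurl1b, a ubiquitin ligase that acts on ligands, fell (-1.83 in Olig2cre/DA-Cat, adjusted p = 1.65e-06, and -1.60 in wild type, adjusted p = 6.42e-06), Neurl1a fell (-0.61 in each), and Neurl3 differed by 0.04 (adjusted p = 0.771) and -0.26 (adjusted p = 0.0512), neither of which passed. Of 8 receptor proteases 2 rose and 1 fell in each genotype: Adam17 rose by 0.51 and 0.67, the γ-secretase subunit Psenen by 0.38 and 0.44, and Furin, which matures the receptor, fell (-0.37 and -0.36). In the transcription complex (9 genes; 2 rose and 3 fell in Olig2cre/DA-Cat, 3 and 3 in wild type) the acetyltransferase Kat2b rose by 0.70 and 1.07, its relative Kat2a fell (-0.70 and -0.49), and Snw1 rose by 0.26 and 0.30. Of 11 corepressor genes 8 fell and 0 rose in each genotype, among them Hdac2 (-0.52 and -0.47), Ctbp2 (-0.49 and -0.52) and Tle2 (-1.01 and -0.69). Of 13 genes for receptor turnover and inhibition 7 fell and 4 rose in Olig2cre/DA-Cat and 6 and 4 in wild type; the Deltex genes Dtx4 (-1.19 and -1.02) and Dtx1 (-0.78 and -0.80) fell, and Itch, a ubiquitin ligase that marks Notch for breakdown, rose by 0.72 and 0.73. With all probe sets of a gene averaged, calls were lost for Dtx1 in both genotypes (-0.10 in Olig2cre/DA-Cat, -0.003 in wild type), for Itch in Olig2cre/DA-Cat (0.24, adjusted p = 0.0511) and for Neurl1a in wild type (-0.12, adjusted p = 0.0807).

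**Figure D4:**
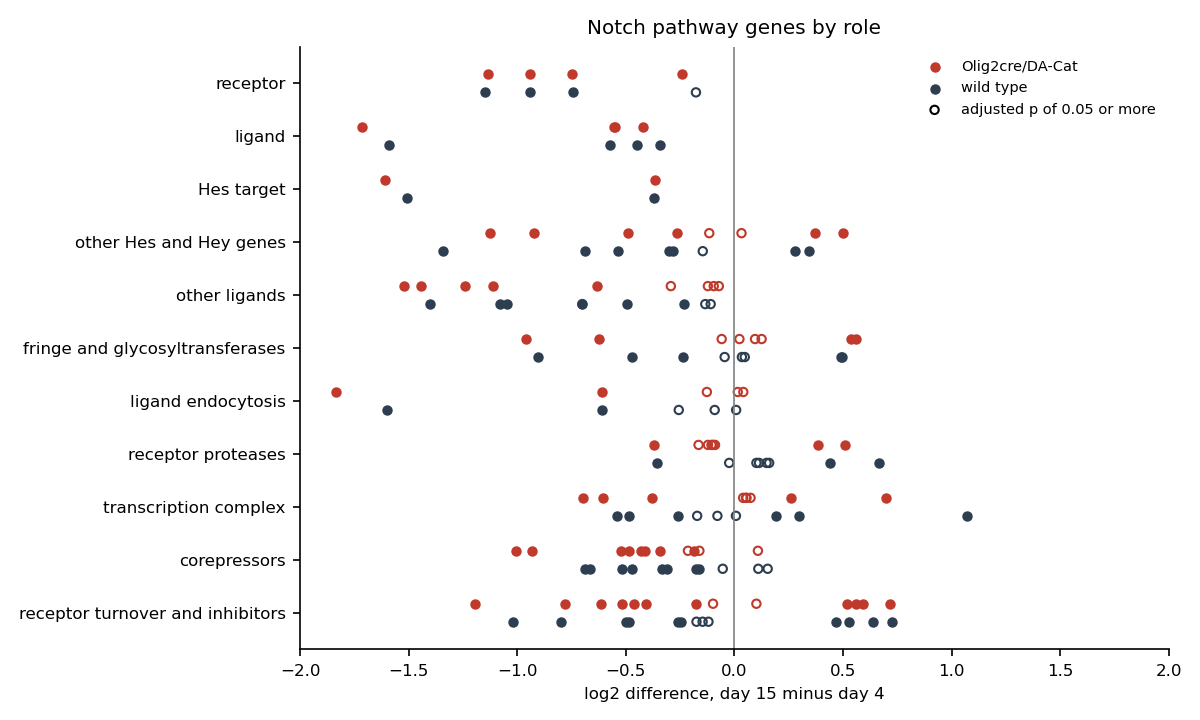
Day 15 minus day 4 (log2) of the 10 genes (first 3 rows) and of 71 other pathway genes by role; each point is a gene, filled where the limma adjusted p is under 0.05. Receptors, ligands and Hes targets lie wholly left of 0, and the proteases and glycosyltransferases lie on either side.

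The 71 pathway genes were also compared between the genotypes, with the same threshold. At day 15, 2 of 71 were higher in Olig2cre/DA-Cat and 2 lower, beside 0.616% and 2.31% of all genes, and at day 4, 1 was higher and 1 lower, beside 1.3% and 1.81%. Kat2b had 9.99, 9.93 and 9.85 in Olig2cre/DA-Cat and 10.47, 10.40 and 10.43 in wild type at day 15, with no overlap, and fell by 0.51 ± 0.05 (SE, n = 3, limma adjusted p = 0.000794). It passed under all 20 alternatives tried at that day. Hey1 had 9.98, 9.99 and 10.03 in Olig2cre/DA-Cat and 9.70, 9.65 and 9.79 in wild type at day 15 and rose by 0.29 (adjusted p = 0.017), a call lost under 5 of 20 alternatives, among them leaving out Olig2cre/DA-Cat replicate 3 (adjusted p = 0.0754) or wild-type replicate 1 (adjusted p = 0.0695) or 2 (adjusted p = 0.0771) of that day. Itch fell by 0.34 at day 15 (adjusted p = 0.0274) and fell by 0.33 at day 4 (adjusted p = 0.0324), but its mean over all its probe sets did not pass (-0.17 and -0.06). The Itch call was kept under 14 of 20 alternatives at day 15 and under 11 of 20 at day 4, where it was lost without any 1 of the Olig2cre/DA-Cat arrays of that day (adjusted p = 0.0754, 0.0508 and 0.143).

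The remaining genotype calls lay close to the threshold. Egfl7, a secreted endothelial protein, rose by 0.22 at day 15 (adjusted p = 0.0478) and kept its call under 4 of 20 alternatives. Cdk8, a kinase that marks the Notch fragment for degradation, rose by 0.27 at day 4 (adjusted p = 0.042) and kept its call under 9 of 20. On average over the days 6 of 71 rose and 2 fell, beside 4.19% and 4.12% of all genes. They were Kat2b (-0.32), Itch (-0.34), Hey1 (0.18), Egfl7 (0.17), Cdk8 (0.16), Rfng (0.22, adjusted p = 0.0245), the contactin Cntn6 (0.20, adjusted p = 0.0426) and the ubiquitin ligase Mib2 (0.17, adjusted p = 0.0484), and of these Cdk8, Cntn6 and Mib2 passed under 6 of 19 alternatives each. Hey1 and Egfl7 passed under 14 of 19 each, Itch under 18 of 19 and Kat2b under 19 of 19. The Itch call was lost with its probe sets averaged (-0.11, limma adjusted p = 0.319). The Rfng call was lost under several, among them the muscle covariate (0.18, limma adjusted p = 0.098). In the test of the difference between days 0 of the 71 passed in limma, beside 0.352% of all genes, and 8 had an unadjusted p under 0.05, as did 10.1% of all genes.

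Each member was also set beside the other 12330 genes with a mean level of at least 6, by Pearson correlation over the 12 arrays. Since the day difference dominates, the correlation was taken again on deviations from the mean of each day; the points share the 4 groups and one normalization, and each value is among the highest of many. Over all arrays Notch1 was most like Zfp36l2 (r = 0.993, and 0.945 on deviations) and Kdm1a (0.992 and 0.943), and on deviations Mgat4b led (0.955). Notch2 was most like Fndc3b (0.983 and 0.957). For Notch3 the highest on all arrays were Ybx1 (0.997) and Reln (0.996), and on deviations Grm4 (0.909) and Pdgfrb (0.902), the pericyte growth factor receptor. For Jag2, Lhx3, a transcription factor of motor neurons and some interneurons, stood among the highest in both measures (0.980 and 0.905). Dll3 was most like Abhd17c and Ncan (0.992 each), and Hes5 most like Midn (0.987); on deviations Pfn1 (0.924) and Zfp719 (0.906) led. Dll1 was most like Fam126a (0.985; Ptdss1 on deviations, 0.936), Jag1 most like Ift57 (0.970; Mospd3, 0.957) and Hes1 most like Hoxb6 (0.979; Prss12, 0.918). The values of Notch4 were the lowest on all arrays, led by 1700086L19Rik (0.946) and, on deviations, Xpa (0.950).

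Marker genes of other cells were also compared between the days. Beside them, 21.8% of all genes rose and 26.3% fell at day 15 in Olig2cre/DA-Cat. In wild type 21.3% of all genes rose and 23.6% fell. Marker counts near these shares are not read as a change of that cell type. All 8 measured cell cycle markers fell in each genotype; their mean level lay between 5.83 and 6.47 at day 15 and between 7.69 and 7.93 at day 4 in Olig2cre/DA-Cat, and between 5.91 and 6.47 against 7.67 and 7.79 in wild type. Of the 8 meninges and fibroblast markers 3 fell and 1 rose in Olig2cre/DA-Cat, and 5 fell and 0 rose in wild type; their mean lay at 9.54 to 10.01 at day 15 and 10.14 to 10.53 at day 4 in Olig2cre/DA-Cat, and at 8.72 to 9.85 against 9.76 to 10.37 in wild type. Of the 9 neuron markers 3 fell and 3 rose in Olig2cre/DA-Cat, and 6 fell and 3 rose in wild type, with means of 12.40 to 12.53 at day 15 and 12.57 to 12.64 at day 4 in Olig2cre/DA-Cat, and of 12.33 to 12.36 against 12.47 to 12.58 in wild type. The part of these or of any of the cell types below in the fall of the Notch genes was not tested. Of the 7 ependymal markers 3 fell in Olig2cre/DA-Cat, and 2 fell and 1 rose in wild type. Of the 6 motor neuron markers 1 fell in each, and of the 8 microglia markers 6 rose in Olig2cre/DA-Cat and 8 in wild type. Of the 3 Schwann cell markers 1 rose in each genotype, and the median day difference of the 3 red blood cell markers was 0.07 in Olig2cre/DA-Cat and -0.13 in wild type. The mean of the 9 pericyte and smooth muscle markers was not lower at day 15. In Olig2cre/DA-Cat it lay at 8.03 to 8.23 at day 15 and 7.83 to 7.93 at day 4. There 4 rose and 1, Pdgfrb, fell by 0.51 (adjusted p = 0.00301). In wild type the mean lay at 7.84 to 8.13 against 7.71 to 7.91. There 2 rose and 1, again Pdgfrb, fell by 0.57 (adjusted p = 0.0016). The 9 endothelial markers lay at 7.61 to 7.73 at day 15 and 7.52 to 7.55 at day 4 in Olig2cre/DA-Cat, and at 7.42 to 7.62 against 7.43 to 7.57 in wild type. Of these endothelial markers 4 rose and 2 fell in Olig2cre/DA-Cat, and 3 rose and 3 fell in wild type. The mean of the 10 astrocyte markers was higher at day 15 (11.47 to 11.54 in all 6 arrays) than at day 4 (11.10 to 11.36). Of them 6 rose and 3 fell in Olig2cre/DA-Cat, and 5 rose and 3 fell in wild type. Those with lower means at day 15 in both genotypes were Aldh1l1, Slc1a3 and Sox9. The 8 precursor markers lay at 9.28 to 9.60 at day 15 and 9.08 to 9.10 at day 4 in Olig2cre/DA-Cat, and at 9.57 to 9.83 against 9.70 to 9.73 in wild type, so their mean was not lower at day 15 in Olig2cre/DA-Cat and overlapped between days in wild type. The single precursor markers went both ways: 4 rose and 1 fell in Olig2cre/DA-Cat, and 2 rose and 2 fell in wild type. Pdgfra had lower means at day 15 than at day 4, at 9.82 against 10.38 in Olig2cre/DA-Cat and 9.91 against 10.62 in wild type.

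**Figure D5:**
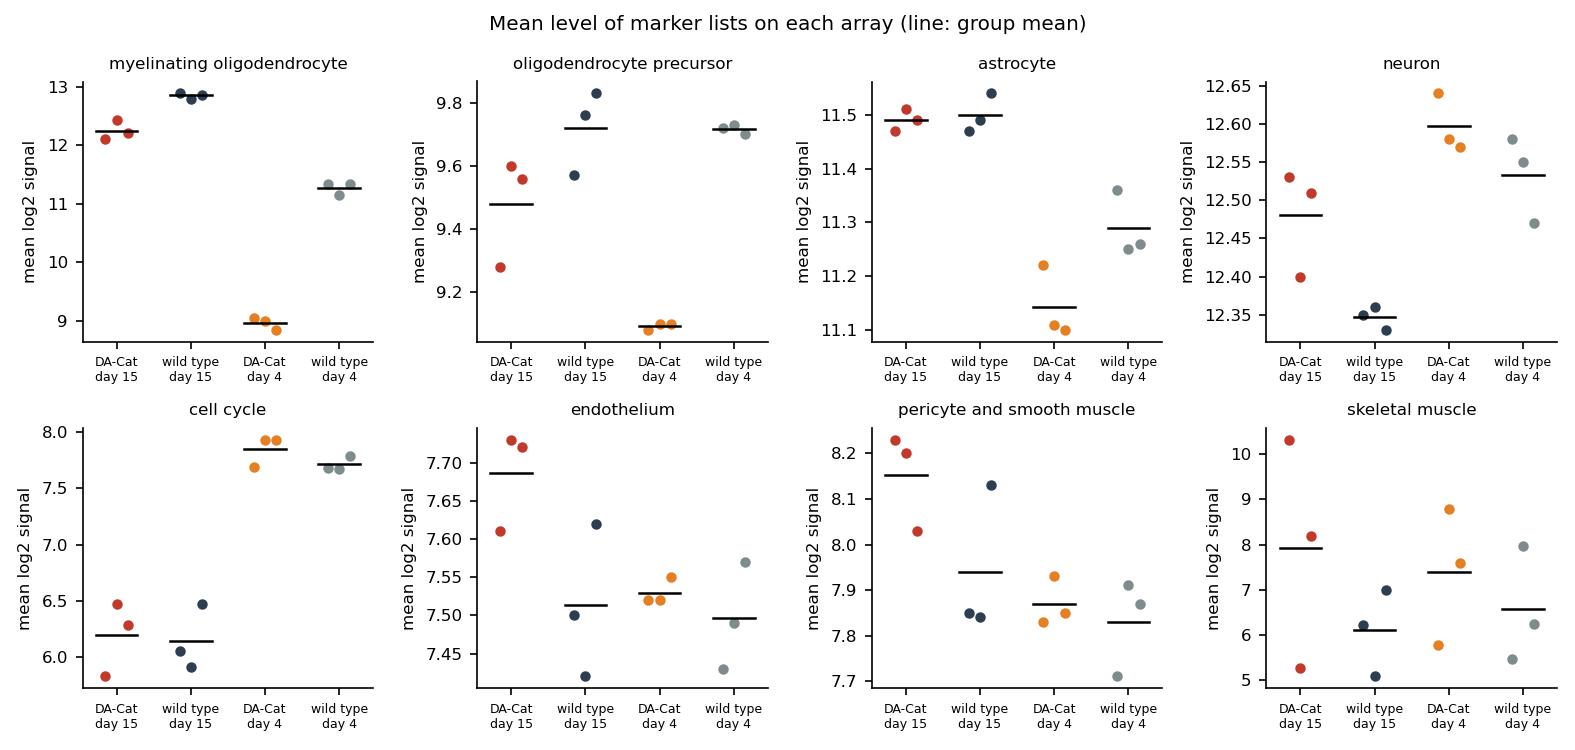
Mean log2 signal of 8 marker lists on each array, 1 panel per list with its own axis that does not start at 0; points are arrays and the line is the group mean. Cell cycle markers are lower at day 15 in each genotype, myelin markers are higher, and skeletal muscle markers vary from array to array (5.27 to 10.32 among the Olig2cre/DA-Cat arrays of day 15).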

How the data were processed

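Total RNA of 12 mouse spinal cord samples was labelled by the Affymetrix 3' IVT method, per the labels' protocols. The deposited values are 1 log2 signal per probe set and array, made by the authors; the log2 scale was judged from their range, and the sources used here do not name the background correction, summarisation or normalization. Depth does not apply to arrays; their number limits the precision, and p-values measure the spread between samples labelled as biological replicates.

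Of 45101 probe sets 34958 had 1 gene symbol, 932 had several, and 9211 were unlisted and unnamed here. Symbols were checked by Entrez identifier against RefSeq GRCm38.p6 (34754 matched). The probe set with the highest mean was kept for each of 18194 genes, without a brightness filter. All arrays were fitted together, 1 mean per group, with limma 3.58.1 in R 4.3.3 (lmFit, contrasts.fit, eBayes; 8 residual degrees of freedom), Benjamini-Hochberg adjusted over all genes. The fit was tested on simulated data (day 4 genotype contrast, 18194 genes): 89% of genes changed by 0.5 and 100% of those changed by 1 log2 were called. False calls numbered 7. Changes as small as the genotype differences of the 10 genes, at most 0.28 at day 4 and 0.47 at day 15, were not simulated. Alternatives were quantile normalization, no dim genes, other variance and probe set choices, fewer arrays, replicate blocks and a muscle covariate.

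The 10 genes, gene lists and tests were chosen with earlier results of these data known. All 10 genes are named with all probe sets; of the 71 pathway genes, those called in a genotype contrast and up to 3 per role with the smallest p in the wild-type day contrast; and for likeness, genes among the 3 highest correlations. Marker lists of ependyma, microglia, motor neurons, meninges, Schwann cells and red blood cells were also measured. Promoter windows come from RefSeq.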

Additional observations from a re-analysis of the deposited data

How the results depend on the processing

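Across 23 alternatives, without the block within each day, none of the 60 member values (10 genes, 6 contrasts) reversed a call; 11 lost a call, 10 of them Notch4 between days in Olig2cre/DA-Cat, and 7 gained one, all Jag2 at day 4 or Notch2. Signs of uncalled differences changed 53 times in 1156. The number of members called at day 4 was 0, and 1 (Jag2) without the dimmer 50% of genes or with the mean over a gene's probe sets. On average over the days it was 0, and 1 (Notch2) without the dimmer 50%. Between days it was 10 in Olig2cre/DA-Cat and 9 in wild type; in Olig2cre/DA-Cat it was 9 with quantile normalization, all probe sets or the muscle covariate and 8 with the mean over probe sets, and it was 6 in each without the dimmer 50%, since only 6 members were then tested. Leaving out each replicate in turn gave 0 to 1 called at day 15 and on average, 0 at day 4 and for the difference between days, and between days 9 to 10 in Olig2cre/DA-Cat and 9 in wild type. The replicate block left the members called at 0 for each genotype contrast, 10 between days in Olig2cre/DA-Cat and 9 in wild type. It gave 501 genes in all at day 15 and 604 at day 4. Same-numbered samples correlated between -0.343 and 0.297 in their deviations. Of the pairs of both genotypes within a day, the 6 same-numbered ones lay between 0.015 and 0.297, with 4 over 0.1 and 0 below 0. The 12 different-numbered ones lay between -0.307 and 0.079, with 0 over 0.1 and 8 below 0. Within the day 8 of 12 samples correlated best with their own number. So same-numbered samples were more alike within a day. The labels do not name pairs, and the fit reported did not use them. A block within each day, chosen after seeing the data, gave 360 genes at day 15, 400 at day 4, 1235 on average and 51 for the difference between days; 0 members were called at either day and 2 on average, Notch2 (0.37, adjusted p = 0.0381) and Jag1 (0.20, adjusted p = 0.0348), beside 1 pathway gene at each day and 6 on average. Called genes over the whole array lay between 260 and 1009 at day 4 (567 in the fit reported), 136 and 935 at day 15 (533), 718 and 2256 on average (1512) and 45 and 117 for the difference between days (64); pathway genes called lay between 0 and 7 at day 4 (2), 1 and 5 at day 15 (4) and 2 and 15 on average (8). Probe sets at low levels limit what Notch4 and the dimmer Jag1 and Notch2 probe sets can show.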
